A study of Mus musculus with 8 samples.

Results

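The transcripts of 10 genes of the mitotic kinase and spindle checkpoint machinery were compared in 2 groups of mammary tumours, 4 of the vector control line 4T1.13-VC and 4 of the knockdown line 4T1.13-miR-21-KD. The genes were listed by name, with earlier results of these data known, and comprise Cdk1, its partners Ccnb1 and Ccnb2, the Aurora kinases Aurka and Aurkb, the polo kinase Plk1, and the checkpoint genes Bub1, Bub1b, Ttk and Mad2l1. All 10 were found among the 27179 genes of the count table and all 10 passed the filter on low counts, which kept 14382 genes. 4T1.13 is a metastatic mouse mammary carcinoma line. Both groups were orthotopic tumours grown in female BALB/c mice aged 7 to 8 weeks after 100000 cells had been placed in the mammary fat pad, and the labels give day 14 for their recovery. The text of the study gives an earlier day, and the difference could not be settled here. The miR-21-KD cells carried a miArrest lentiviral vector in which the H1 promoter drives an RNA that binds and holds mature miR-21, whereas the VC cells carried the same vector with a scrambled RNA. Cells of both groups therefore shared the mCherry reporter and hygromycin resistance, and each line was a pool of 6 clones, so that the 4 tumours of a group came from 1 engineered population. The comparison addressed how the transcriptome of a tumour differed when miR-21 activity in its cancer cells was suppressed.

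Entry into mitosis is driven by CDK1 bound to a B-type cyclin. Aurora A and PLK1 help to switch this kinase on and to build the spindle poles, while Aurora B, as part of the chromosomal passenger complex, releases faulty attachments between chromosomes and microtubules. Until every chromosome is attached, the spindle checkpoint, in which TTK (also called MPS1), BUB1, BUBR1 (the product of Bub1b) and MAD2 act at the kinetochore, keeps the anaphase-promoting complex inactive. Most of these transcripts accumulate in G2 and mitosis and are low in resting cells, and in a tumour they come mainly from cells that are dividing.

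Whole tumours were sequenced, so each value is an average over cancer, immune and stromal cells, and fewer cells of a type cannot be told apart from less RNA per cell. Between 12134849 and 13592695 reads were counted on genes per VC tumour and between 12550898 and 12783800 per miR-21-KD tumour. Values are given as CPM (counts scaled to a common library size, with the TMM factor of each library), and as fitted log2 fold changes of miR-21-KD over VC with their standard error (SE) and the adjusted p of edgeR's quasi-likelihood test, called at 0.05. The gene of miR-21 itself, Mir21a, had 0 counts in all 8 libraries, which allows up to 0.221 to 0.247 CPM, and the vector acts on the mature miRNA, so these counts do not check the knockdown. Of the epithelial markers that test the labelled tissue, Krt8 averaged 808 ± 173 CPM in the VC group and 439 ± 213 CPM in the miR-21-KD group (SD, n = 4), a difference that did not pass the threshold (adjusted p = 0.087), and Epcam rose from 25.6 ± 17.1 to 97.6 ± 39.3 CPM (SD, n = 4, adjusted p = 0.0182). The tumours differed widely in the first principal component of all tested genes, which held 67.5% of the variance. Tumour 2 of the miR-21-KD group lay at 7.1 on it, between the VC tumours at -78.4 to -23.3 and the other miR-21-KD tumours at 45.6 to 76.5.

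Of the 10 genes, 9 were called lower in miR-21-KD tumours and 0 higher. Over all tested genes 19.5% were called lower and 19.6% higher, and the median log2 fold change was -0.01, against -1.22 for the 10 genes, whose values ranged from -1.42 to -0.87. The fitted level in miR-21-KD tumours was 37.4% to 54.9% of that in VC tumours. For 8 of the 10 genes every miR-21-KD tumour lay below every VC tumour, as it did for 18.9% of all tested genes, and for none of the 10 did every miR-21-KD tumour lie above, as it did for 16.3%. The exceptions were Bub1, which was not called, and Ttk, which was called although its groups overlapped. All 10 genes ordered the tumours alike at the extremes, with tumour 2 highest and tumour 1 lowest of the miR-21-KD group and tumour 4 lowest of the VC group.

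**Figure D1:**
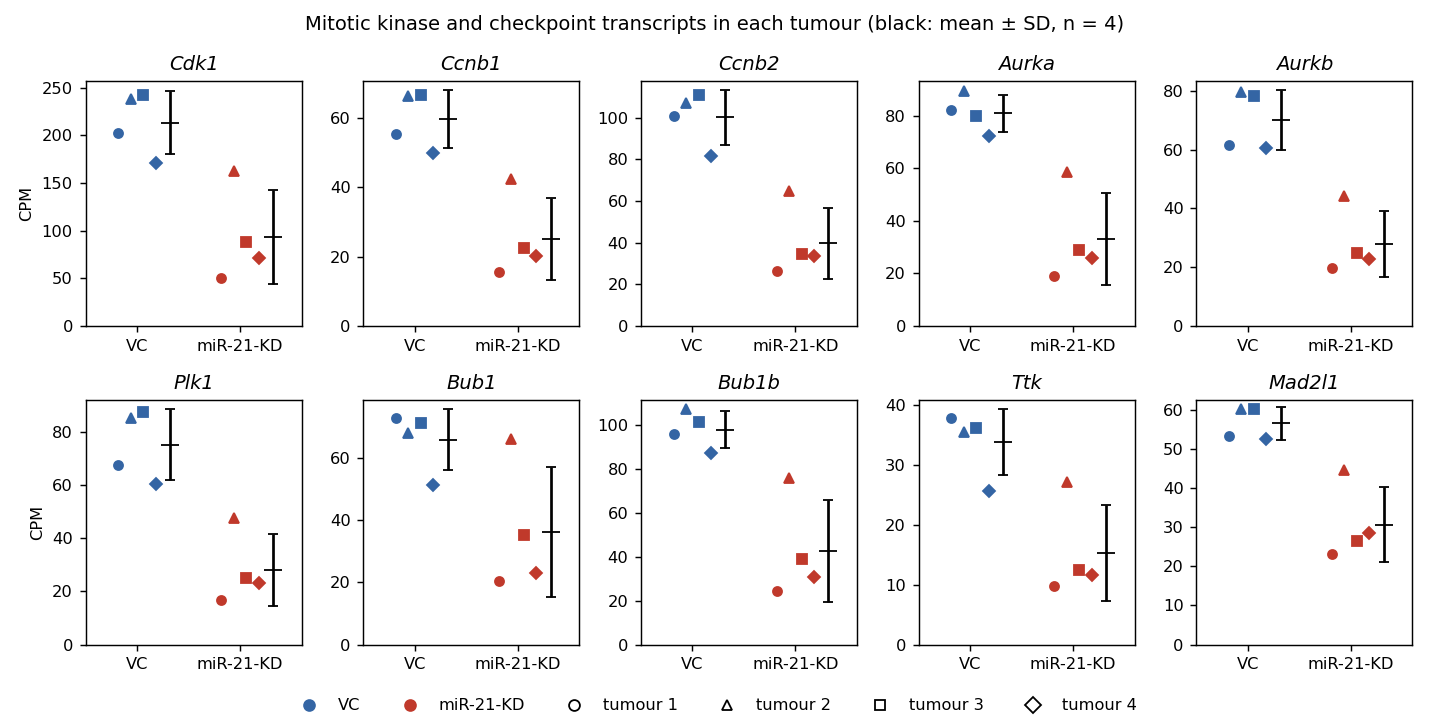
CPM of each of the 10 genes (vertical axes from 0) in the 4 VC tumours (blue) and 4 miR-21-KD tumours (red), with a symbol per tumour number and the group mean ± SD in black. The miR-21-KD tumours lie below the VC tumours for 8 genes, and tumour 2 (red triangle) is the highest miR-21-KD tumour in every panel, reaching the VC range for Bub1 and Ttk.

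CDK1 and the B-type cyclins form the kinase that starts mitosis. Cdk1 (chr10:69335146-69352912, GRCm38) was counted at 202, 238, 242 and 171 CPM in VC tumours 1 to 4 and at 50.4, 163, 88.4 and 71.6 CPM in the miR-21-KD group 1 to 4. The groups did not overlap, and the gap was narrow, between 163 CPM in miR-21-KD tumour 2 and 171 CPM in VC tumour 4. The fitted level fell by 1.19 on the log2 scale (SE 0.32, adjusted p = 0.0219), to 43.7% of VC.

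Ccnb1 (chr13:100778739-100786486), which encodes cyclin B1, stood at 55.4, 66.4, 66.8 and 49.9 CPM in the VC tumours and at 15.7, 42.4, 22.5 and 20.1 CPM in the miR-21-KD tumours. The groups were separate, and the log2 fold change was -1.24 (SE 0.28, adjusted p = 0.0132). Ccnb2 (chr9:70407689-70421554), for the related cyclin B2, gave 101, 107, 111 and 81.7 CPM against 26.4, 64.8, 34.4 and 33.6 CPM. This was a fall of similar size, at -1.33 (SE 0.26, adjusted p = 0.00876). Within a tumour the log2 ratio of Ccnb1 to Ccnb2 differed between groups by 0.07 (exact two-sided permutation test, n = 4 per group, p = 0.286, adjusted over 3 such pairs p = 0.429), and a difference was not shown. Mouse annotation holds 1 pseudogene named for each of the 2 cyclins. The cyclin B1 copy, Ccnb1-ps, singled out after its values were seen, was itself counted and lower in miR-21-KD tumours, with a log2 fold change of -1.17 (SE 0.40, adjusted p = 0.0479), and reads may have been split between gene and copy.

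The kinases that build the spindle and correct its attachments fell together. Aurka (chr2:172356190-172370886), whose product matures the centrosomes, was measured at 82.2, 89.6, 80.1 and 72.4 CPM in the VC group and at 19.2, 58.6, 29 and 25.8 CPM in the miR-21-KD group. No value was shared between the groups, and the log2 fold change was -1.29 (SE 0.31, adjusted p = 0.0144). Aurkb (chr11:69045624-69051664), the kinase of the chromosomal passenger complex, read 61.6, 79.5, 78.1 and 60.7 CPM in the VC group and 19.7, 44.4, 24.9 and 22.9 CPM in the miR-21-KD group. Its log2 fold change was -1.32 (SE 0.25), with an adjusted p of 0.0079, the smallest of the 10 genes in this fit. The log2 ratio of Aurka to Aurkb differed by -0.03 between groups (exact two-sided permutation test, n = 4 per group, p = 0.714, adjusted p = 0.714). A different response of the 2 Aurora kinases was therefore not shown.

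Plk1 (chr7:122159435-122169884), the polo kinase that acts from mitotic entry to cytokinesis, showed the largest fall of the 10 genes. Its values were 67.3, 85, 87.5 and 60.2 CPM in the VC group and 16.9, 47.6, 24.8 and 23 CPM in the miR-21-KD group. The fitted level in miR-21-KD tumours was 37.4% of VC (log2 fold change -1.42, SE 0.30, adjusted p = 0.0105). An opposite-strand transcript of the annotation shares 156 exonic bases with Plk1, and whether strand was used in counting is not given in the sources used here.

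The log2 fold changes of the 4 checkpoint genes ranged from -1.20 for Bub1b to -0.87 for Bub1. Differences among them were tested only for Bub1 against Bub1b. Bub1b (chr2:118598202-118641592), whose product is part of the inhibitor of the anaphase-promoting complex, was at 95.9, 107, 101 and 87.1 CPM in the VC group and at 24.4, 75.9, 39 and 30.6 CPM in the miR-21-KD group. The groups were separate and the log2 fold change was -1.20 (SE 0.32, adjusted p = 0.0194). Mad2l1 (chr6:66535221-66541107), for MAD2, the protein that holds the APC/C activator CDC20, was at 53.3, 60.1, 60.1 and 52.6 CPM in the VC group and at 23.1, 44.6, 26.5 and 28.5 CPM in the miR-21-KD group. Its fall was smaller, at -0.88, with the smallest SE of the 10 genes (0.19), and passed the threshold (adjusted p = 0.0117).

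Ttk (chr9:83834651-83872390), the kinase at the top of the checkpoint, was the least abundant of the 10 genes per kilobase of exon. Its counts corresponded to 37.8, 35.6, 36.2 and 25.6 CPM in the VC group and 9.7, 27.2, 12.4 and 11.7 CPM in the miR-21-KD group. Tumour 2 of the miR-21-KD group exceeded VC tumour 4, and each of the remaining 3 was lower than any VC tumour. The log2 fold change was -1.15 (SE 0.32, adjusted p = 0.023).

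Bub1 (chr2:127800197-127831859), the kinase that marks centromeres for the passenger complex, was the gene that did not pass. It read 72.8, 68, 71.1 and 51.3 CPM in the VC group and 20.3, 65.9, 35.1 and 23.1 CPM in the miR-21-KD group, so that tumour 2 stood at the VC average and the other 3 below all VC tumours. The log2 fold change was -0.87 (SE 0.35, adjusted p = 0.0754). With a block for the tumour number the log2 fold change was -1.0 and passed (adjusted p = 0.0311). It was -0.85 with DESeq2 (adjusted p = 0.0369) and -1.01 with limma-voom (adjusted p = 0.0336), which also passed. Without miR-21-KD tumour 2 it was -1.34 (adjusted p = 0.00295). The log2 ratio of Bub1 to Bub1b was -0.58 ± 0.16 in VC tumours and -0.25 ± 0.11 in the others (SD, n = 4), a difference of 0.33 that did not pass (exact two-sided permutation test, p = 0.0571, adjusted p = 0.171). Over the 3 pairs a single ratio could not have reached an adjusted p below 0.0857 in this permutation test.

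Compared per kilobase of exon, the mean level in VC tumours was highest for Ccnb2, at 65.3 ± 8.43 CPM per kb (SD, n = 4). Cdk1 at 48.7 ± 7.66, Aurka at 41.8 ± 3.64, Aurkb at 35.9 ± 5.23, Plk1 at 34.1 ± 6.05 and Mad2l1 at 32.8 ± 2.41 CPM per kb followed, and each of these overlapped its neighbour in the order within 1 SD. Bub1b at 26.7 ± 2.3, Ccnb1 at 23.9 ± 3.36 and Bub1 at 19.2 ± 2.88 CPM per kb likewise overlapped from neighbour to neighbour, and Ttk was lowest at 11.6 ± 1.91 CPM per kb. In miR-21-KD tumours Ccnb2 (26 ± 11.1) and Cdk1 (21.3 ± 11.2) again had the highest mean CPM per kb and Ttk (5.27 ± 2.77) the lowest. The spread there was wide enough that most neighbours in the order were within it. The order depends on the annotated exons, which for Cdk1 total 4375 bases, 3352 of them 3′UTR, against 1531 bases for Ccnb2. Whether the whole 3′UTR of Cdk1 was transcribed in these tumours was not examined.

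Over all 4 tumours of a group, the miR-21-KD tumours were more variable than the VC tumours in all 10 genes. The coefficient of variation of CPM was 7.34% to 17.8% among VC tumours and 31.2% to 57.9% among miR-21-KD tumours. Tumour 2, the highest of its group in every gene, is part of the latter range, and the coefficient was not computed without it. Tumour 2 held 63.4% to 100% of the VC mean depending on the gene, whereas the mean of the other 3 miR-21-KD tumours was 28.8% to 46% of it. Without tumour 2 all 10 genes were called lower, with log2 fold changes of -1.8 to -1.12 (median -1.63) and adjusted p of at most 0.00295 in edgeR's test.

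**Figure D2:**
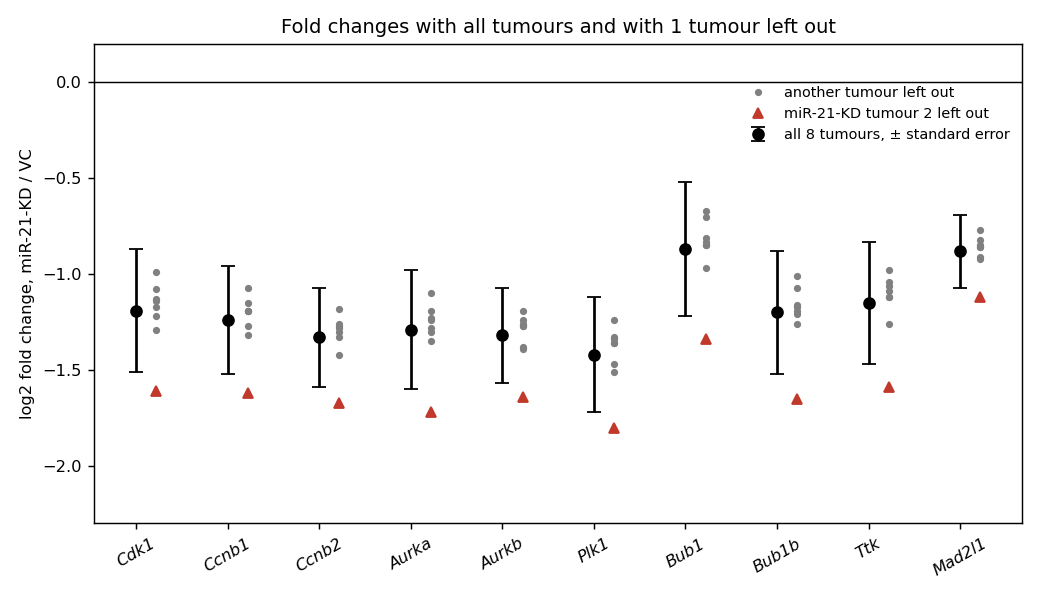
Log2 fold change of miR-21-KD over VC for each gene with all 8 tumours (black, ± SE) and with 1 tumour left out (grey points, red triangle for miR-21-KD tumour 2). All values lie below 0, and the lowest of each gene, from -1.8 to -1.12, is the one without miR-21-KD tumour 2.

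The calls of Bub1b, Ttk and Cdk1 were lost when some single tumours were left out. Leaving out VC tumour 2 raised the adjusted p of Ttk to 0.0553 and of Cdk1 to 0.0552. Without VC tumour 3 the adjusted p was 0.0514 for Bub1b, 0.0592 for Ttk and 0.0591 for Cdk1. The loss of miR-21-KD tumour 1 left Ttk at 0.0525. Leaving out miR-21-KD tumour 3 gave 0.0523 for Bub1b, 0.062 for Ttk and 0.0564 for Cdk1, and tumour 4 gave 0.0564, 0.0661 and 0.0638. Aurka, Aurkb, Plk1, Mad2l1, Ccnb1 and Ccnb2 were called with each of the 8 tumours left out in turn.

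After removal of the group means, the 10 genes rose and fell together from tumour to tumour. Over the 45 pairs of genes the Pearson correlation of log2 CPM across the 8 tumours was between 0.878, for Bub1 with Mad2l1, and 0.996, for Plk1 with Ccnb1, with a median of 0.967. These correlations are a description, since the points share libraries and the deviation of miR-21-KD tumour 2, at 0.87 log2 CPM above its group in the mean of the 10 genes, is larger than that of any other tumour. The genes outside the set whose centred values followed that mean most closely were Cdca3 (r = 0.997), Spag5 and Nuf2 (0.996), Tpx2 and Ptcd3 (0.995), Kif22, Ckap2l, Kif18a and Htra1 (0.994) and Mrrf (0.993), each over 8 tumours. Several act in mitosis: NUF2 binds microtubules at the kinetochore, TPX2 activates Aurora A, SPAG5 and CKAP2L are spindle proteins, and KIF18A and KIF22 are mitotic kinesins. PTCD3 and MRRF are mitochondrial translation proteins and HTRA1 is a secreted protease. Their log2 fold changes ranged from -0.45 for Ptcd3 (SE 0.14, adjusted p = 0.0311) to -1.41 for Spag5 (SE 0.37, adjusted p = 0.0203).

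Whether the 10 genes fell in proportion to other transcripts of dividing cells was examined within tumours. Mki67, the gene of the Ki-67 proliferation antigen, fell from 319 ± 53.9 to 176 ± 69.1 CPM (SD, n = 4), a log2 fold change of -0.86 (SE 0.25, adjusted p = 0.0281). Its own call was lost without VC tumour 1, 2 or 3 or without miR-21-KD tumour 1, 3 or 4 (adjusted p 0.0582 to 0.0753). Relative to Mki67 the difference in log2 ratio was negative for all 10 genes, between -0.59 and -0.01, and passed for 6. Plk1 relative to Mki67 went from -2.08 ± 0.2 to -2.68 ± 0.31 (SD, n = 4), a difference of -0.59. The others that passed were Aurka (-0.50), Ccnb2 (-0.49), Bub1b (-0.42), Ccnb1 (-0.42) and Ttk (-0.33), each with an exact two-sided permutation p of 0.0286, the smallest that 4 against 4 can give, and an adjusted p of 0.0476 over the 20 ratios tested.

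Against the mean log2 CPM of 16 S phase genes the pattern was much the same. Plk1 (-0.61), Aurka (-0.52), Ccnb2 (-0.51), Aurkb (-0.49), Bub1b (-0.44) and Ccnb1 (-0.44) passed, each with an adjusted p of 0.0476 in the exact permutation test. All 12 ratios that passed against either reference stood at the smallest possible p. Had fewer reached it, none would have passed after adjustment over the 20. The ratios share genes and references, so they are not separate results. Aurkb relative to Mki67 (-0.47, adjusted p = 0.0879) and Cdk1 relative to either reference (-0.40 and -0.42, adjusted p = 0.107) did not pass in the exact permutation tests, nor did Ttk relative to the S phase mean (-0.35, adjusted p = 0.107). With a prior count of 0.5 in the log2 CPM, Aurkb relative to Mki67 passed the same test (adjusted p = 0.044). Mad2l1 gave -0.01 relative to Mki67 and -0.03 relative to the S phase mean, where its ratio was -0.41 ± 0.06 in the VC group and -0.44 ± 0.06 in the miR-21-KD group (SD, n = 4, exact permutation adjusted p = 0.672). Bub1 gave -0.10 and -0.12 (exact permutation adjusted p = 0.752 and 0.698), with a spread in miR-21-KD tumours of 0.4 and 0.41. With the tumours paired by number, 0 of the 20 ratios passed, because the smallest p of 4 pairs is 0.125, and 0 passed with any tumour left out.

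**Figure D3:**
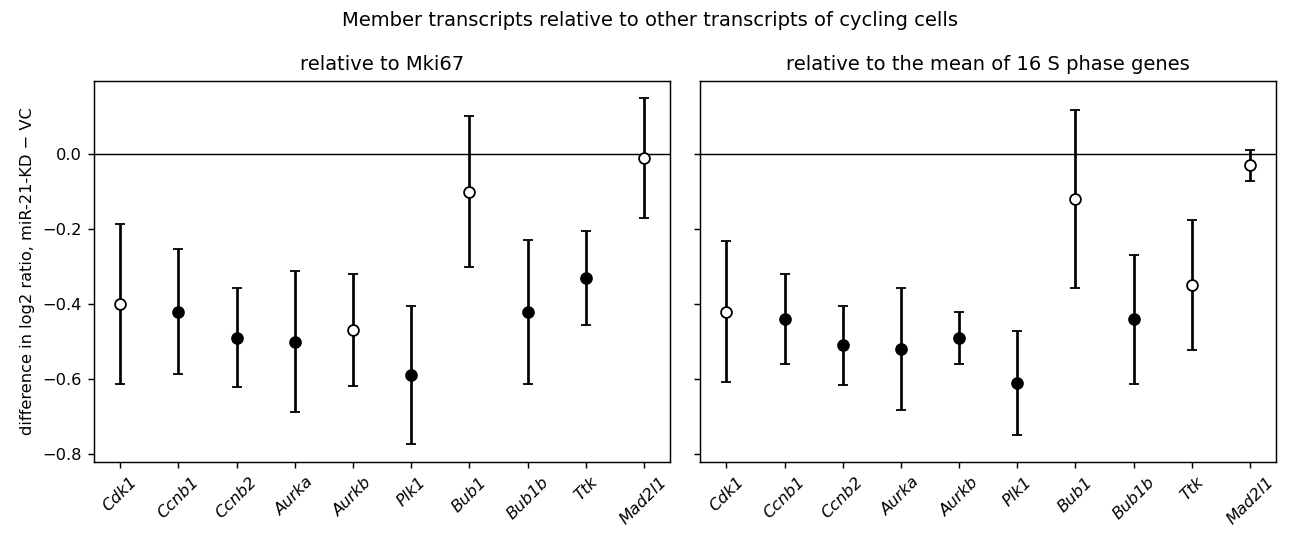
Difference between miR-21-KD and VC tumours in the log2 ratio of each gene to Mki67 (left) and to the mean of 16 S phase genes (right), with the standard error of the difference from the 2 group SDs. Filled points passed an adjusted p of 0.05 in the exact permutation test; Plk1 is lowest in both panels, at -0.59 and -0.61, and Mad2l1 lies next to 0, at -0.01 and -0.03.

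The partners of these genes were followed in 9 lists of 87 genes. Of the 85 tested, 59 were lower, 2 were higher and 24 did not pass, with a median log2 fold change of -0.84. Over all tested genes the same test called 19.5% lower and 19.6% higher, with a median of -0.01, and the counts of each list and of the marker genes stand beside these shares. With DESeq2 4 were higher. With the replicate block 65 of the 85 were lower, and over all genes 3176 in place of 2800. The number lower depended on single tumours, being 38 without VC tumour 2, 32 without VC tumour 3, 35 without miR-21-KD tumour 3 and 32 without miR-21-KD tumour 4. The genes called lower over the whole table fell in the same refits, to 1588, 1487, 1768 and 1612. List by list, the number lower with a tumour left out was 3 to 10 for checkpoint partners, 3 to 7 for the outer kinetochore, 3 to 6 for the passenger complex and cohesin protection, 6 to 10 for CDK1 regulators, 3 to 8 for other kinases and their activators, 4 to 6 for mitotic exit, 0 to 7 for transcription factors, 9 to 16 for S phase and 0 to 2 for proliferation markers. The lists were written with earlier results of these data known.

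Among 11 checkpoint partners 7 were lower (9 with the replicate block) and 0 higher (median -0.78). Zwilch, a subunit of the complex that carries MAD1 and MAD2 to the kinetochore, fell from 31.7 ± 6.45 to 12.6 ± 5.36 CPM (SD, n = 4), at -1.33 (SE 0.28, adjusted p = 0.0102). Its adaptor Spdl1 (-0.99, adjusted p = 0.00922) and the anchor Zwint (-0.75, adjusted p = 0.015) fell as well. Of the 8 outer kinetochore genes, which form the microtubule attachment site on which the checkpoint is built, 7 were lower (median -0.93), with the smallest adjusted p for Nsl1 (-1.27, adjusted p = 0.00632), Pmf1 (-0.94, adjusted p = 0.00777) and Spc24 (-1.35, adjusted p = 0.0116). All 6 genes of the chromosomal passenger complex and cohesin protection were lower (median -1.21). Birc5, which encodes the Aurora B partner survivin, fell from 113 ± 12.6 to 43.6 ± 20.7 CPM (SD, n = 4) with a log2 fold change of -1.38 (adjusted p = 0.00988). Incenp, the scaffold of the same complex, gave -0.84 (adjusted p = 0.0107), and Sgo1, the shugoshin that guards centromeric cohesin, gave -1.52 (adjusted p = 0.00734).

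Of the 11 partners and regulators of CDK1, 8 were called lower and 0 higher (median -0.87). Cdc25b, an activating phosphatase, fell from 112 ± 17.2 to 50.8 ± 14.9 CPM (SD, n = 4, log2 fold change -1.14, adjusted p = 0.00699). Wee1, a kinase that inhibits CDK1, fell by 0.87 on the log2 scale (adjusted p = 0.00737), and Pkmyt1, another inhibitory kinase of the list, named after its values were seen, gave -0.43 and did not pass (adjusted p = 0.273). A difference between these 2 kinases was not tested. Arpp19, an inhibitor of the opposing phosphatase PP2A, fell by 0.43 (adjusted p = 0.00717). Cdkn1a, the gene of the CDK inhibitor p21, rose from 111 ± 26.5 to 216 ± 28.6 CPM (SD, n = 4), at 0.97 (SE 0.18, adjusted p = 0.00771). Among activators of Aurora and polo kinases and other mitotic kinases, 7 of 11 tested were lower (8 with the replicate block) and 1 higher (median -0.69). Nek2, a centrosomal kinase, gave -1.59 (adjusted p = 0.0119), Bora, the cofactor through which Aurora A activates PLK1, gave -1.24 (adjusted p = 0.0116), and Nek6 gave -0.50 (adjusted p = 0.0127). The exception was Plk2, a polo family kinase with roles outside mitosis, which rose from 74.3 ± 11.1 to 160 ± 35.3 CPM (SD, n = 4, log2 fold change 1.11, adjusted p = 0.00612). The third Aurora kinase, Aurkc, had 0 counts in all tumours.

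Genes of mitotic exit were lower in 5 of 7 tested (6 with the replicate block; median -0.97). Cdc20, the activator that MAD2 and BUBR1 hold, fell from 109 ± 15.3 to 44.9 ± 22.3 CPM (SD, n = 4, log2 fold change -1.28, adjusted p = 0.0137). Pttg1, which encodes securin, gave -1.51 (adjusted p = 0.00967), and Espl1, which encodes the separase that securin inhibits, gave -0.95 (adjusted p = 0.00921). Of the 13 transcription factors of G2/M genes, 3 were lower and 1 higher, with a median of -0.26, the nearest to 0 of the lists. That number lower is close to the 19.5% of all tested genes. It was 5 with the replicate block and with DESeq2, 7 without miR-21-KD tumour 2, and 0 without VC tumour 2 or 3 or without miR-21-KD tumour 1, 3 or 4. Foxm1 (-1.17, adjusted p = 0.0268), Mybl2 (-0.97, adjusted p = 0.0472) and Lin9 (-0.76, adjusted p = 0.0245), which together activate late cell cycle promoters, were lower, and Rbl2, the p130 pocket protein found in resting cells, rose from 37.5 ± 4.95 to 61.3 ± 12.5 CPM (SD, n = 4, log2 fold change 0.71, adjusted p = 0.0115). Of the 16 S phase genes 14 were lower (median -0.84), among them Slbp (-0.56, adjusted p = 0.0075), Tyms (-0.93, adjusted p = 0.00777) and Gins2 (-0.86, adjusted p = 0.0085). Top2a, which untangles sister chromatids, gave -1.36 (SE 0.42, adjusted p = 0.0318). Its call, like that of Mki67, was lost without VC tumour 1, 2 or 3 or without miR-21-KD tumour 1, 3 or 4.

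**Figure D4:**
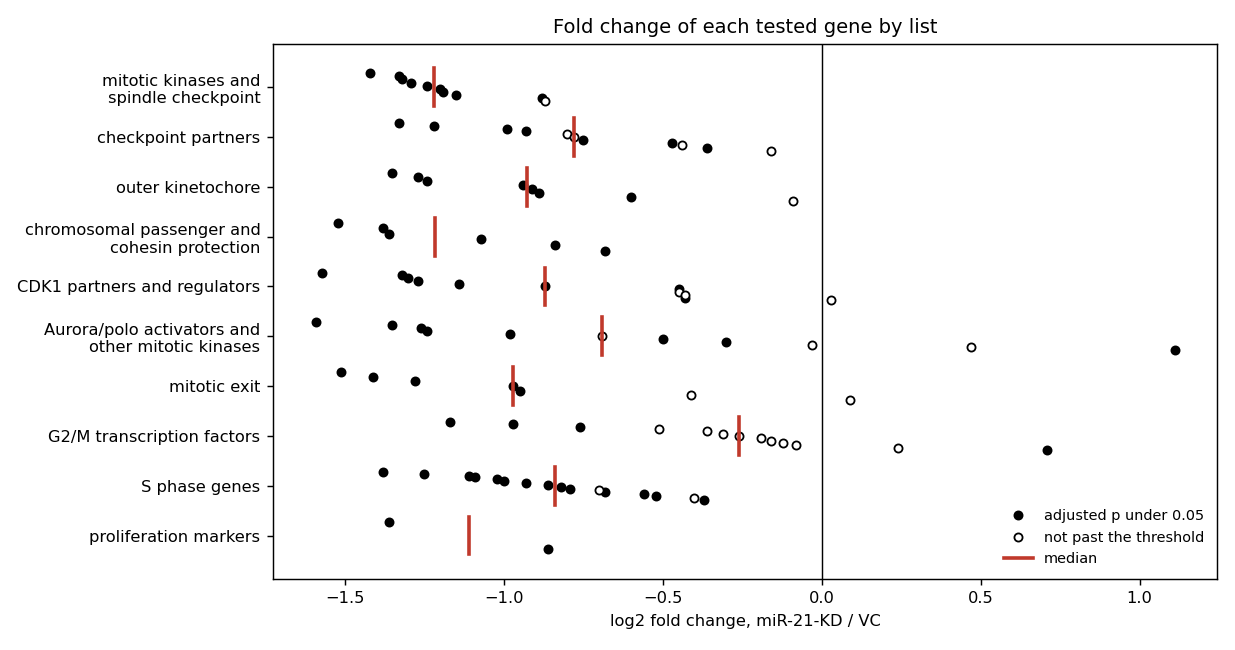
Log2 fold change of miR-21-KD over VC (horizontal axis) for every tested gene of the 10 mitotic kinase and checkpoint genes and of the 9 lists around them; filled points have an adjusted p under 0.05 and the red line is the median of the list. Medians lie between -1.22 and -0.69 except for the G2/M transcription factors at -0.26, and 2 filled points lie above 0, Plk2 at 1.11 and Rbl2 at 0.71.

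Several lists of other cell types had most of their markers called higher in the miR-21-KD group. The summed CPM of the 10 genes was 713 to 936 in the VC group and 226 to 634 in the miR-21-KD group. Leukocyte markers, of which 4 of 5 were higher, summed to 1000 to 1880 CPM in the VC group and 2070 to 2930 in the miR-21-KD group, and Ptprc, the gene of CD45, rose from 189 ± 68.2 to 375 ± 75.6 CPM (SD, n = 4, adjusted p = 0.018). Macrophage and monocyte markers summed to 2740 to 4000 CPM in the VC group and 5540 to 8650 in the miR-21-KD group, with 8 of 9 higher, including Csf1r (454 ± 111 to 926 ± 236 CPM, SD, n = 4, adjusted p = 0.0127). T cell markers summed to 40 to 150 CPM in the VC group and 134 to 273 in the miR-21-KD group, so that the groups overlapped, and 6 of 8 were higher, Cd3e among them (9.65 ± 4.73 to 27.9 ± 8.89 CPM, SD, n = 4, adjusted p = 0.0166). Fibroblast markers, with 5 of 7 higher, summed to 3060 to 8040 CPM in the VC group and 10500 to 23400 in the miR-21-KD group, and Col1a1 rose from 1260 ± 479 to 3500 ± 1230 CPM (SD, n = 4, adjusted p = 0.0134).

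Adipocyte markers were higher in 5 of 5 and summed to 30.3 to 158 CPM in the VC group and 266 to 910 in the miR-21-KD group. NK cell markers summed to 5.03 to 21.7 CPM and 28.8 to 54.6 CPM in the same order. B cell (1.76 to 145 and 8.68 to 63.7 CPM), neutrophil (294 to 796 and 384 to 674 CPM) and endothelial markers (387 to 676 and 568 to 799 CPM) overlapped between groups. Skeletal muscle markers summed to 4.41 to 9.06 CPM in the VC group and 1.3 to 4.04 in the miR-21-KD group. Most of the VC sum was from Myh1, the 1 muscle gene tested, named after its values were seen, which was lower (4.98 ± 1.77 to 0.892 ± 0.998 CPM, SD, n = 4, adjusted p = 0.0209). Of the untested muscle genes Acta1 averaged 0.326 ± 0.322 and 1 ± 0.583 CPM (SD, n = 4) in VC and miR-21-KD tumours, and Ckm and Myh4 were near 0 in both. Epithelial markers, as a sum, ranged from 1310 to 2270 CPM in the VC group and from 921 to 2030 CPM in the miR-21-KD group, and 8 of 10 of them were higher. The marker that was lower was Krt18, which with Krt8 made up most of the sum in VC tumours, at 1020 ± 243 CPM in VC and 460 ± 216 CPM in the other tumours (SD, n = 4, adjusted p = 0.0374), named after its values were seen. The tumour with the most of the 10 mitotic transcripts in the miR-21-KD group, tumour 2, had the lowest leukocyte, macrophage and fibroblast sums of that group. Its lowest T cell and NK cell sums were those of tumour 3. In the VC group, tumour 4, with the least of the mitotic transcripts, had the highest leukocyte, T cell and NK cell sums. The highest macrophage and fibroblast sums of that group were those of VC tumour 1. VC tumour 4 also stood apart in its B cell sum, at 145 CPM against 1.76 to 5.09 CPM in the other VC tumours, and in the second principal component, at -59.2 against -7.4 to 20.5 for the other 7 tumours. The part of cell composition in the fall of the mitotic genes was not tested.

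**Figure D5:**
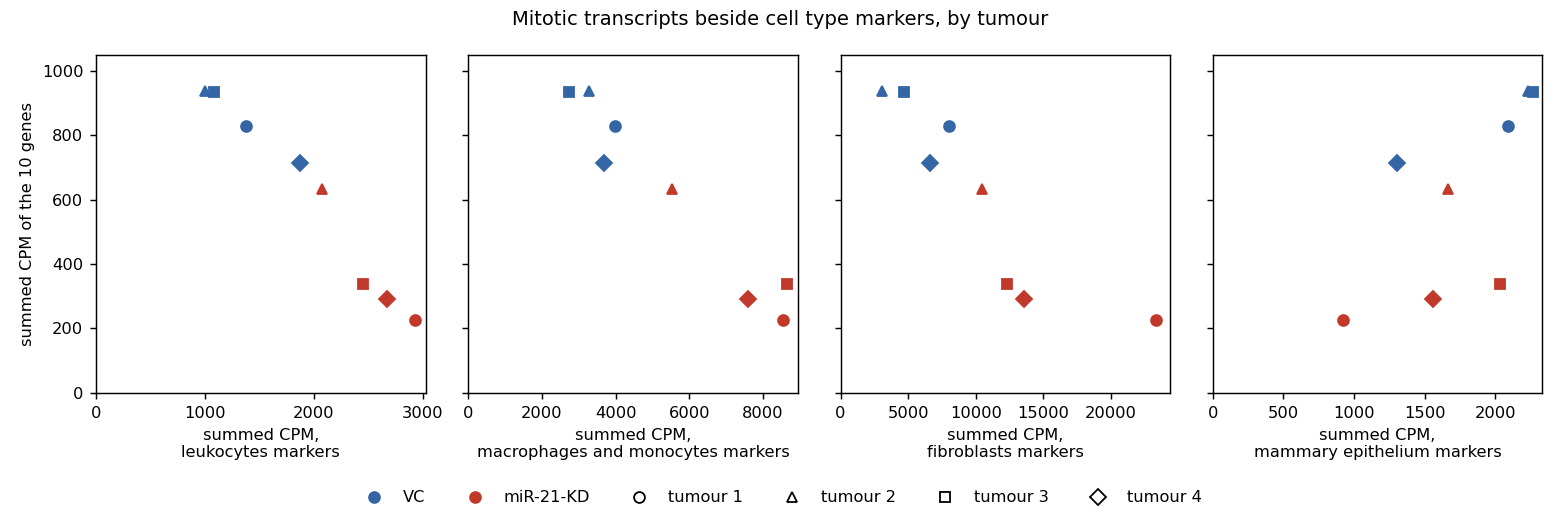
Summed CPM of the 10 mitotic genes (vertical axis) against the summed CPM of 4 marker lists (horizontal axes), 1 point per tumour, blue for VC and red for miR-21-KD. Leukocyte, macrophage and fibroblast sums are higher in every miR-21-KD tumour than in any VC tumour, with tumour 2 (red triangle) nearest to the VC tumours, whereas the epithelial sums of the groups overlap.

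The sequence of miR-21 is shown here because it is what the vector sequesters. The mature mouse miRNA (RefSeq, chr11:86584120-86584141, minus strand, GRCm38.p6), with its seed, bases 2 to 8, in capitals, reads:
mmu-miR-21a-5p: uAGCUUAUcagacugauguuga

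The 3′UTRs of the 10 genes, of 121 bases for Bub1 to 3352 bases for Cdk1, were searched for the 7 letters that pair with the seed, ATAAGCT, and for TAAGCTA, which pairs with bases 2 to 7 and ends in A. Neither was found in any of the 10. The first was in 6.52% and the second in 6.09% of the 3′UTRs of 19260 genes, whatever their length. The absence says only that these letters are not in the annotated 3′UTRs, and no other part of the transcripts was searched.

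Promoters were examined because the 10 genes moved together. Promoters of G2/M genes are known for the cell cycle genes homology region (CHR, TTTGAA or TTTAAA), read by the DREAM complex and by B-MYB with FOXM1, and for CCAAT boxes, bound by NF-Y. A window from 250 bases before to 50 bases after the RefSeq start site (GRCm38.p6) was at hand for 9 of the 10 genes, all except Aurkb. Stretches from 100 bases before to 15 bases after the start are shown 5′ to 3′ on the strand of the gene for the 3 genes of the CDK1 kinase, for Ttk, for Bub1, and for Mad2l1, which held no match. Capitals mark the CHR and CCAAT motifs, on either strand.
Cdk1, chr10:69352898-69353012, minus strand: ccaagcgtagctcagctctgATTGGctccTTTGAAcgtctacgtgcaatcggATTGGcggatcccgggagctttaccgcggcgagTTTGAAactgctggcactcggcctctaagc
Ccnb1, chr13:100786472-100786586, minus strand: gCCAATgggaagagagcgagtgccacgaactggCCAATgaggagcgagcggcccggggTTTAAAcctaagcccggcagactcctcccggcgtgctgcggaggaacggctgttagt
Ccnb2, chr9:70421540-70421654, minus strand: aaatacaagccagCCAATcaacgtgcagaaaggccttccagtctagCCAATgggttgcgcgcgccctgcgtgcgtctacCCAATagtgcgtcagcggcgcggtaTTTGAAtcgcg
Ttk, chr9:83834589-83834703, plus strand: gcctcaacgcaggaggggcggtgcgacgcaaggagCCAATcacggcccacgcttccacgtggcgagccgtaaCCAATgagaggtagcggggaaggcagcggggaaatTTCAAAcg
Bub1, chr2:127831845-127831959, minus strand: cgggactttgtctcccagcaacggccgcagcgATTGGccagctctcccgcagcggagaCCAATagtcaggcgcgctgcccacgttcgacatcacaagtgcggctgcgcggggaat
Mad2l1, chr6:66535121-66535235, plus strand: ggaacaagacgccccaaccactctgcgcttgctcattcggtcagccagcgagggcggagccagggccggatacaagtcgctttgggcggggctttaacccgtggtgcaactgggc

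A CHR was present in 7 of the 9 windows, TTTGAA in 6 and TTTAAA in 3, read on both strands. Over all 32851 promoter windows of the reference, 27.6% held either, 17.9% held TTTGAA and 13.2% held TTTAAA. The CCAAT box was in 8 of the 9 windows and in 37.4% of all, and at least 2 copies were in 6 of the 9 and in 11.7% of all. Cdk1 and Ccnb2 had 3 CCAAT boxes each and Ccnb1, Ttk, Aurka and Bub1 had 2 each. The 2 genes without a CHR in the window were Bub1, which held CCAAT, and Mad2l1, which held neither motif. For Mad2l1 the RefSeq start lies 247 bases before that of the GENCODE transcript, so that its window may not cover the start used in these tumours. For Ccnb1 the GENCODE start lies 84 bases before the RefSeq start, so that its TTTAAA and nearer CCAAT would fall within that transcript. The nearest GENCODE start lies 26 bases before the RefSeq start for Cdk1 and 35 bases after it for Aurka. Matches are a description of letters, and no binding was measured.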

How the data were processed

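RNA was sequenced from 8 tumours, and what the authors deposited is 1 table of raw read counts by Entrez identifier, not normalized. Per the labels the submitters' processing used Subread, featureCounts, edgeR and limma with build mm10; versions and strand settings are not given in the sources used here. Symbols from the GRCm38.p6 annotation matched 25275 of 27179 identifiers. Groups and tumour numbers came from the titles, and every column was used. The labels name separate tumours, whose pairs within a group differed beyond sampling noise (chi-square per degree of freedom 12.7 to 71.4).

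Counts were analysed in R 4.3.3 with edgeR 4.0.16: filterByExpr by group (count of at least 10, total of at least 15; 14382 genes with 99.852% of counts), TMM, robust quasi-likelihood test, Benjamini-Hochberg adjustment over all tested genes, threshold 0.05. Ratios within tumours used log2 CPM with a prior count of 2 and exact two-sided permutation tests over the 70 splits. Limits for 0 counts take 3 counts and cover counting error only. The members, lists, tests and the naming rule were chosen with earlier results of these data known. The rule names all 10 genes, the 3 of smallest adjusted p per direction in each list, Mki67, Top2a, Foxm1, Mybl2, Cdc20, Cdkn1a, 6 cell type markers, and the 10 genes most alike across tumours. Promoter and miRNA sequences are RefSeq's, and 3′UTRs and exon lengths those of GENCODE basic transcripts paired with curated RefSeq transcripts.

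The labels number tumours 1 to 4 in both groups but state no pairing. After removal of group means, same-numbered tumours correlated at 0.272, 0.421, 0.175 and 0.376. The other 12 combinations averaged -0.105, which the removal of group means largely fixes once the same-numbered values are given. Values with the replicate block are given where it changed the call of one of the 10 genes or a ratio, or a list's count. Alternatives were DESeq2 1.42.0, library size and upper-quartile scaling, no filter, a minimum of 10 counts in each tumour, limma-voom (limma 3.58.1), the replicate block and each tumour left out. The ratios were also computed with a prior count of 0.5. Promoter motifs were also sought in the last 200 bases of each window, where as many of the genes held a CHR and a CCAAT. In simulated counts on 14252 genes, 99 tested genes were changed 2-fold and 98 were changed 4-fold. The test found 54.5% and 87.8% of them, with 6 false calls. Genes were drawn independently there and few were changed, whereas 39.1% of tested genes were called in the tumours. These rates therefore need not hold for this comparison.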

Additional observations from a re-analysis of the deposited data

Results flagged for a closer look

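Among the 20 groups of 4 values checked, the 10 genes in each of the 2 groups of tumours, 1 held a value far from the others by Dixon's test: Ttk in miR-21-KD tumour 2, at 27.2 CPM against 9.7 to 12.4 CPM in the other 3 tumours of its group. Its gap was 0.845 of the group's range, above the critical value at the 95% level. Chance gives about 1 such value in 20 groups. The low value of Ttk in VC tumour 4, 25.6 CPM, came close, at 0.821 of the range.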

How the results depend on the processing

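Over 150 refits of the 10 genes (7 other settings and 8 left-out tumours each) all fold changes were negative, 134 fell on the same side of the threshold as reported, 12 lost the call and 4 gained it, and none reversed. Between 9 and 10 of the genes were called under the other settings and 6 to 10 with a tumour left out. The 4 gains were Bub1 with DESeq2 (-0.85), limma-voom (-1.01), the replicate block and without miR-21-KD tumour 2 (-1.34), and the 12 losses were of Bub1b, Ttk and Cdk1. The replicate block changed no other call among the 10 genes. Over all genes, 5626 passed the threshold, 5112 to 6550 under other settings and 2936 to 6840 with a tumour left out: 3290 without VC tumour 2, 2936 without VC tumour 3, 3750 without miR-21-KD tumour 3 and 3366 without miR-21-KD tumour 4. The wider lists gave 2 higher genes (4 with DESeq2) and 59 lower genes, 65 with the replicate block, 55 to 65 under other settings and 32 to 72 with a tumour left out. Of the 20 ratios to Mki67 and the S phase mean 12 passed, with 0 to 13 under other settings, 0 with the replicate block, whose smallest p is 0.125, and 0 to 0 with a tumour left out, where the smallest adjusted p was 0.0571. None of the 3 ratios between related genes passed under any setting, but a single ratio could not have reached an adjusted p below 0.0857 over the 3 tests, so this says nothing about stability. In simulated data with few changed genes, drawn independently, 54.5% of 2-fold changes were found. The share found with these 8 tumours can differ from that, and changes of that size or smaller can be missed.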
